A study of Rattus norvegicus with 8 samples.

Results

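The genes Ccn1, Ccn2, Sav1, Wnt11 and Areg, which are tied to Hippo-YAP signalling and to the matricellular proteins that YAP controls, were followed across the RNA-seq libraries of cultured rat nucleus pulposus cells, which come from the soft centre of the intervertebral disc. They were picked by symbol from the deposited table of TPM values (transcript abundance per length, on a total that is fixed for each library), and all 5 were found among its 4226 genes. The choice was made with the difference between the groups known, so the values of the 5 genes in that contrast are a description and carry no test.

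The antioxidant enzyme SOD1 was first depleted by knockdown in every library's cells. Transfection then gave back either its lysine-to-arginine mutant (SOD1-K123R, 4 libraries) or unaltered SOD1 (SOD1-WT, 4 libraries), under 10 mM lactate for 7 days in each group, and the question is what the mutation does to transcripts in lactate-treated cells. The Sod1 transcript was not analysed here, so the knockdown and rescue were not checked. Library identifiers run unbroken within each group, and no batch is given in the labels used here. An effect of handling therefore cannot be told apart from that of group. The table heads the SOD1-K123R columns L and the SOD1-WT columns Ctrl, which the labels do not expand. The labels give lactate for both groups, and whether lactate also differed between them was not tested. Whether replicates were separate cultures is not stated in the labels, and p-values then measure the spread between these libraries, which may be technical.

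The Hippo pathway is a kinase cascade that restrains growth. Kinases of the MST family, held in place by the scaffold SAV1, activate the LATS kinases, which phosphorylate the coactivators YAP and TAZ and keep them out of the nucleus. When the cascade is off, YAP and TAZ bind the TEAD transcription factors and switch on genes such as CCN1 and CCN2, whose secreted products bind integrins and matrix. In the disc CCN2 is known as a factor that promotes matrix production by nucleus pulposus cells.

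The deposited rows covered 23.5 to 24.3% of the full TPM total in SOD1-K123R libraries and 18.8 to 19.9% in SOD1-WT libraries, so the table is part of a larger set of genes, and depth is not recoverable from TPM. How its rows were selected is not known, and a difference between the groups may have been a criterion, so shares of all genes tested describe these rows and not the transcriptome. Of 20 markers of nucleus pulposus and notochord 9 were in the table, with summed levels of 49.0 to 71.1 TPM in SOD1-K123R and 55.5 to 70.0 TPM in SOD1-WT. Of the 8 tested 4 were higher and 4 lower in SOD1-K123R by limma. The transcription factor gene Sox9 was at 3.19 ± 0.500 TPM in SOD1-K123R and 0.40 ± 0.101 TPM in SOD1-WT, and Cd24, Car12 and Nog were also higher, while Cdh2, Ncam1, Car3 and Acan were lower. The cartilage collagen gene Col2a1 read at most 0.08 TPM in SOD1-K123R and 0 TPM in every SOD1-WT library, and the proteoglycan gene Acan read 0.50 to 0.72 TPM in SOD1-K123R and 1.23 to 2.16 TPM in SOD1-WT. The 3 markers of annulus fibrosus and tendon in the table, of 11 listed, summed to 48.5 to 58.1 TPM in SOD1-K123R and 119.5 to 145.6 TPM in SOD1-WT. The 2 macrophage and leukocyte markers in the table, of 10 listed, summed to 23.4 to 30.9 TPM in SOD1-K123R and 5.44 to 8.04 TPM in SOD1-WT, almost all from Cd68, and the 2 endothelial markers summed to at most 0.67 TPM in SOD1-K123R and 0.39 TPM in SOD1-WT. Whether a change in cell makeup takes part in the differences below was not tested, and in such bulk samples fewer cells of a type and less RNA per cell cannot be told apart.

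Ccn2 (ENSRNOG00000015036), which encodes the matricellular protein also called connective tissue growth factor, was the most abundant of the 5 genes in both groups. It read 3322, 3123, 2993 and 3432 TPM in SOD1-K123R replicates 1 to 4, against 1024, 975, 1061 and 1054 TPM in SOD1-WT replicates 1 to 4. The lowest SOD1-K123R library was far above the highest SOD1-WT library. The mean level was 3217 ± 197 TPM in SOD1-K123R and 1029 ± 39.1 TPM in SOD1-WT (SD, n = 4 each, as for all TPM means that follow), a ratio of 3.13 and a log2 fold change of 1.64 (SE 0.08) on the log2(TPM + 1) scale. That level made Ccn2 the 14th most abundant of the 4226 deposited genes in SOD1-K123R and the 35th in SOD1-WT, at 0.322% and 0.103% of all transcripts.

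Ccn1 (ENSRNOG00000014350), which encodes the related integrin-binding protein CYR61, had lower levels and nearly the same difference. Its TPM were 1369, 1348, 1460.4 and 1543 in SOD1-K123R, against 476, 421, 388 and 554 in SOD1-WT, again with no overlap. The mean was 1430.3 ± 89.8 TPM in SOD1-K123R and 459.8 ± 72.8 TPM in SOD1-WT, a ratio of 3.11 and a log2 fold change of 1.65 (SE 0.11). The SOD1-WT libraries were more scattered for Ccn1 than for Ccn2, with coefficients of variation of 15.8% and 3.80%, whereas in SOD1-K123R these were 6.28% and 6.11%. The quotient of the 2 levels, Ccn2 over Ccn1, was 2.25 ± 0.159 in SOD1-K123R and 2.28 ± 0.350 in SOD1-WT, a difference smaller than the spread between libraries.

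The promoters of both CCN genes are printed because their TEAD sites are the textbook link between YAP and these genes. They are the 250 bases before the transcription start in RefSeq (GRCr8), written 5′ to 3′ on the strand of the gene, for Ccn2 at chr1:22624615-22624864 and for Ccn1 at chr2:237225690-237225939, both on the minus strand. Capitals mark the core TEAD motif GGAATG or its reverse complement CATTCC.
Ccn2: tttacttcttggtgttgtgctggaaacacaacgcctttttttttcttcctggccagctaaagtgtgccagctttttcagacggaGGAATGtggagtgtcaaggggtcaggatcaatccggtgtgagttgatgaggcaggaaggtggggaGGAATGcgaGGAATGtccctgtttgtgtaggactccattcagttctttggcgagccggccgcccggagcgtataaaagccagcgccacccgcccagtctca
Ccn1: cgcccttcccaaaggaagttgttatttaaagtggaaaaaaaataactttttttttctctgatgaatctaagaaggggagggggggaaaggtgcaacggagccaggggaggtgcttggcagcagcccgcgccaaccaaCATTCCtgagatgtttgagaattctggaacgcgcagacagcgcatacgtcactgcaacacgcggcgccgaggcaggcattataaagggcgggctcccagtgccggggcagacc

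Ccn2 held 3 matches, whose first bases lie at -166, -101 and -92 relative to the start, all on the strand of the gene. Ccn1 held 1, on the other strand with its first base at -113. Over all 33469 RefSeq windows of the same kind (300 bases, 250 before and 50 after a start, both strands), 14.2% had at least 1 match, and 32 windows (0.0956%) had 3 or more. The AP-1 motif TGANTCA, found in 7.33% of all windows, and the CArG box bound by SRF, found in 1.64%, were in neither CCN window. No measurement of TEAD or YAP binding in these cells was analysed here.

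**Figure D1:**
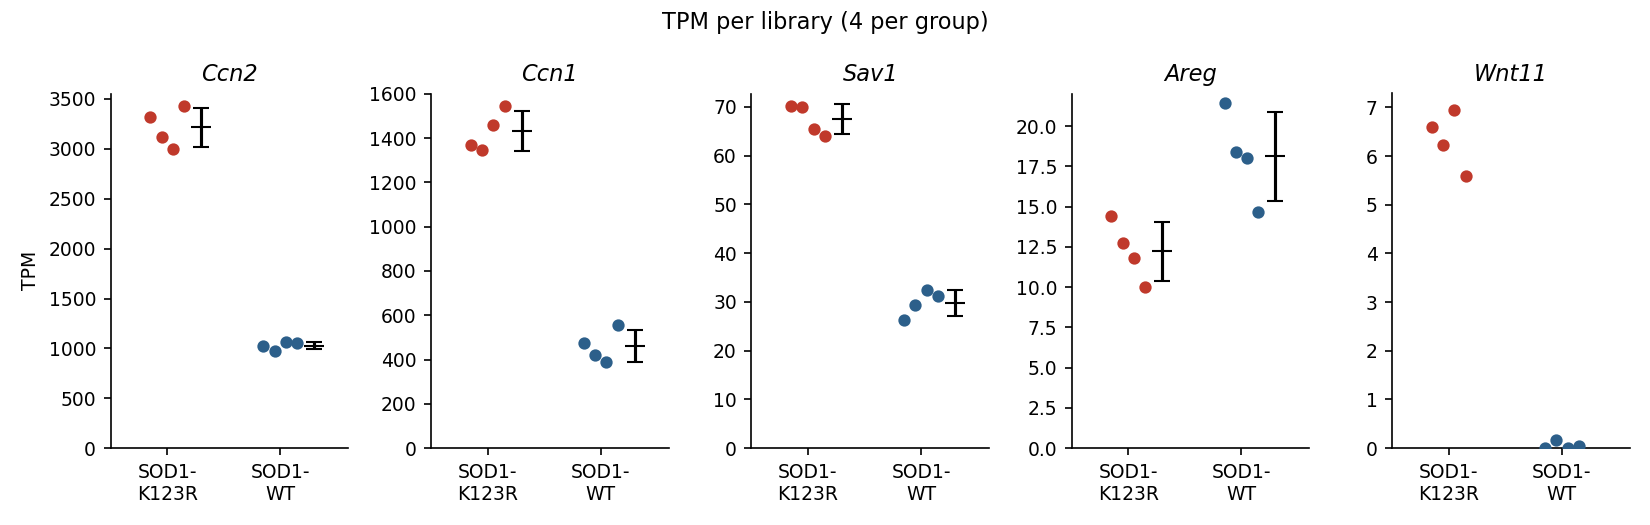
TPM of Ccn2, Ccn1, Sav1, Areg and Wnt11 (vertical axes, each from 0) in the 4 SOD1-K123R libraries (left, red) and the 4 SOD1-WT libraries (right, blue). Points are libraries, and bars show the mean ± SD except for Wnt11, which is listed at 0 in 2 SOD1-WT libraries; Areg is the gene whose groups lie closest, at 10.0 to 14.4 TPM in SOD1-K123R and 14.7 to 21.5 TPM in SOD1-WT.

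Sav1 (ENSRNOG00000005264) encodes the scaffold that joins the MST kinases to their partners and stabilises them. It was the only 1 of 19 listed core kinases and adaptors of the cascade in the table, and the MST and LATS kinases were not analysed here. Sav1 read 70.1, 70.0, 65.4 and 64.1 TPM in SOD1-K123R, against 26.3, 29.4, 32.4 and 31.15 TPM in SOD1-WT. Each SOD1-K123R library was above each SOD1-WT library. The mean of 67.4 ± 3.10 TPM in SOD1-K123R against 29.8 ± 2.65 TPM in SOD1-WT is a ratio of 2.26 (log2 fold change 1.15, SE 0.09). Its promoter window held 1 TEAD match, whose first base lies at -167 from a start that is not the outermost of the gene. It is shown within 30 bases, to set beside the CCN promoters (GRCr8, chr6:94236248-94236277, minus strand, match in capitals).
Sav1: cgactttcccagCATTCCcagcggcgcggg

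Wnt11 (ENSRNOG00000015982) encodes a secreted Wnt ligand known mainly for signalling independent of beta-catenin, and the table annotates it to the KEGG Hippo signaling pathway. Its TPM were 6.59, 6.22, 6.94 and 5.59 in SOD1-K123R, against 0, 0.16, 0 and 0.05 in SOD1-WT. The gene was therefore detected at a low level in each SOD1-K123R library and was at or near 0 in each SOD1-WT library. Its log2 fold change was 2.80 (SE 0.12) with a pseudocount of 1 TPM and 5.51 with 0.1 TPM, so the size of the difference is set by the pseudocount. With 1 TPM added it ranked 33rd among the increases of the 2890 genes tested. The Wnt11 window, at a start that is not the outermost of the gene, held no match to any of the 3 motifs.

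Areg (ENSRNOG00000002754) encodes amphiregulin, a membrane-anchored ligand of the epidermal growth factor (EGF) receptor that is shed by metalloproteases, and it was the 1 gene of the 5 with lower levels in SOD1-K123R. It read 14.4, 12.7, 11.8 and 10.0 TPM in SOD1-K123R, against 21.5, 18.4, 18.0 and 14.7 TPM in SOD1-WT. The highest SOD1-K123R library, at 14.42 TPM, was just below the lowest SOD1-WT library, at 14.66 TPM. The means were 12.2 ± 1.84 and 18.1 ± 2.78 TPM in SOD1-K123R and SOD1-WT, a ratio of 0.675 and a log2 fold change of -0.53 (SE 0.13). The median log2 fold change of all 2890 genes tested was -0.49, so the Areg value lay close to that median. The median depended on the expression filter, however, and was 0.27 when a mean of 5 TPM or more was required. The Areg window held none of the 3 motifs either.

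The groups did not overlap for any of the 5 genes, 4 of them higher and 1 lower in SOD1-K123R. Of all genes tested 91.4% had groups that did not overlap, 42.6% higher and 48.8% lower in SOD1-K123R. A log2 fold change of at least 1 was found for 4 of the 5 genes and for 26.0% of all genes tested. The genes were chosen on this contrast, so nothing is read from these counts. From highest to lowest the order of levels was Ccn2, Ccn1, Sav1, Areg and Wnt11 in SOD1-K123R and also in SOD1-WT, and the ranges of neighbours in that order did not overlap in either group.

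**Figure D2:**
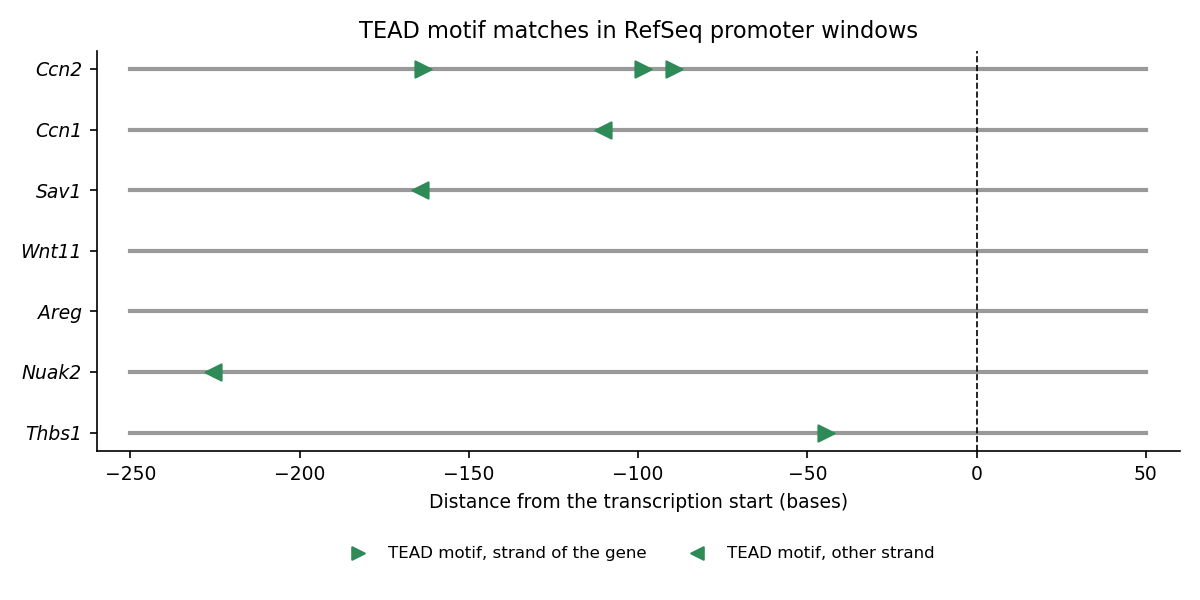
Matches to the TEAD motif in RefSeq promoter windows, by distance from the transcription start in bases (horizontal axis), for the 5 genes and for Nuak2 and Thbs1, the other YAP/TAZ-TEAD targets of the table with a match. Triangles are matches and their direction is the strand; Ccn2 has 3, Ccn1 and Sav1 have 1 each, and Wnt11 and Areg have 0.

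The sizes of these differences depended on how the libraries were scaled. The sign was kept for all 5, but after median-of-ratios scaling the Areg value was smaller than its standard error (-0.079, SE 0.16). Rescaling by the median of ratios over the deposited rows, which moved the log2 fold change of the typical gene by 0.42, gave 2.13 for Ccn2, 2.13 for Ccn1, 1.62 for Sav1, 3.02 for Wnt11 and -0.079 for Areg. Quantile normalization, which moved the typical gene by 0.19, gave 1.07, 1.15, 1.04, 2.93 and -0.40 for the same genes in turn. Relative to the median of all genes tested under each scaling, the range over the TPM as deposited and both rescalings was 1.34 to 2.27 for Ccn2, 1.41 to 2.27 for Ccn1, 1.30 to 1.77 for Sav1 and 3.17 to 3.29 for Wnt11. For Areg it was -0.14 to 0.06. After median-of-ratios scaling Areg ran from 12.3 to 16.0 rescaled TPM in SOD1-K123R and from 11.96 to 21.0 in SOD1-WT, so that the groups overlapped, and those of the other 4 genes did not.

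**Figure D3:**
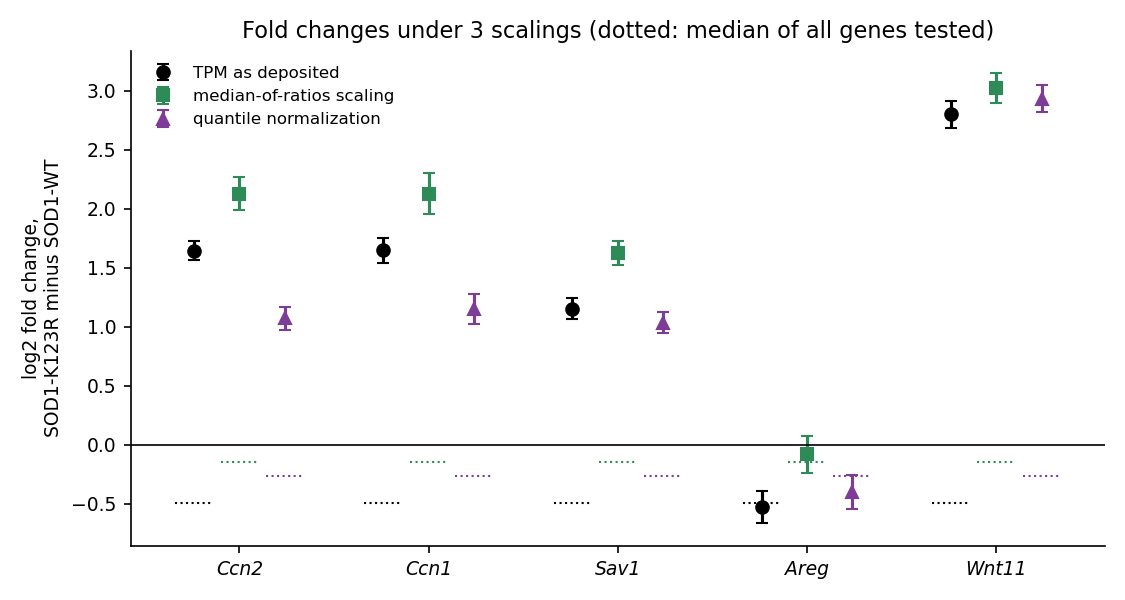
Log2 fold changes of the 5 genes, SOD1-K123R minus SOD1-WT (vertical axis, log2(TPM + 1) scale), with TPM as deposited, after median-of-ratios scaling and after quantile normalization; bars are limma standard errors and dotted lines the median of all 2890 genes tested under the same scaling. Ccn2, Ccn1, Sav1 and Wnt11 lie above the dotted line in all 3 cases and Areg lies within 0.14 of it.

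The other listed targets of YAP/TAZ and TEAD went both ways. Of 17 tested besides Ccn1, Ccn2 and Areg, 5 rose, 11 fell and 1, the cytokinesis gene Anln, did not pass (log2 fold change -0.15; limma, Benjamini-Hochberg adjusted p = 0.425). Their median log2 fold change was -1.24, beside -0.49 over all genes tested and 0.27 over those with a mean of at least 5 TPM. Of all genes tested 95.7% passed, 44.6% as higher and 51.1% as lower in SOD1-K123R, shares that hold for the deposited rows alone. A count of passing genes therefore says little, here and for each list below. Rescaling by the median of ratios gave 6 higher and 11 lower, with Anln then higher.

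Among the targets that rose, Gadd45b, a stress-induced growth-arrest gene, read 849, 834, 1063 and 763 TPM in SOD1-K123R, against 58.7, 51.0, 46.7 and 60.1 TPM in SOD1-WT (limma adjusted p = 5.27e-11). Birc2, which encodes the cell-death inhibitor cIAP1, was at 82.4 ± 7.73 TPM in SOD1-K123R and 14.3 ± 1.42 TPM in SOD1-WT (log2 fold change 2.44, SE 0.10, adjusted p = 6.68e-10). The largest decrease among the listed targets was that of Ereg, which encodes epiregulin, a ligand of the EGF receptor like amphiregulin. Ereg read 13.2, 12.2, 11.9 and 8.20 TPM in SOD1-K123R, against 85.7, 120.8, 139 and 104 TPM in SOD1-WT (log2 fold change -3.19, SE 0.16, adjusted p = 3.19e-09). Fjx1, the counterpart of the Drosophila kinase four-jointed, fell to 3.52 ± 0.798 TPM in SOD1-K123R, against 21.5 ± 1.27 TPM in SOD1-WT (adjusted p = 7.43e-09). Ankrd1, a muscle ankyrin-repeat gene widely used as a YAP readout and singled out after its values were seen, was below the expression filter, at 0 to 0.06 TPM in SOD1-K123R and 0.29 to 0.67 TPM in SOD1-WT.

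**Figure D4:**
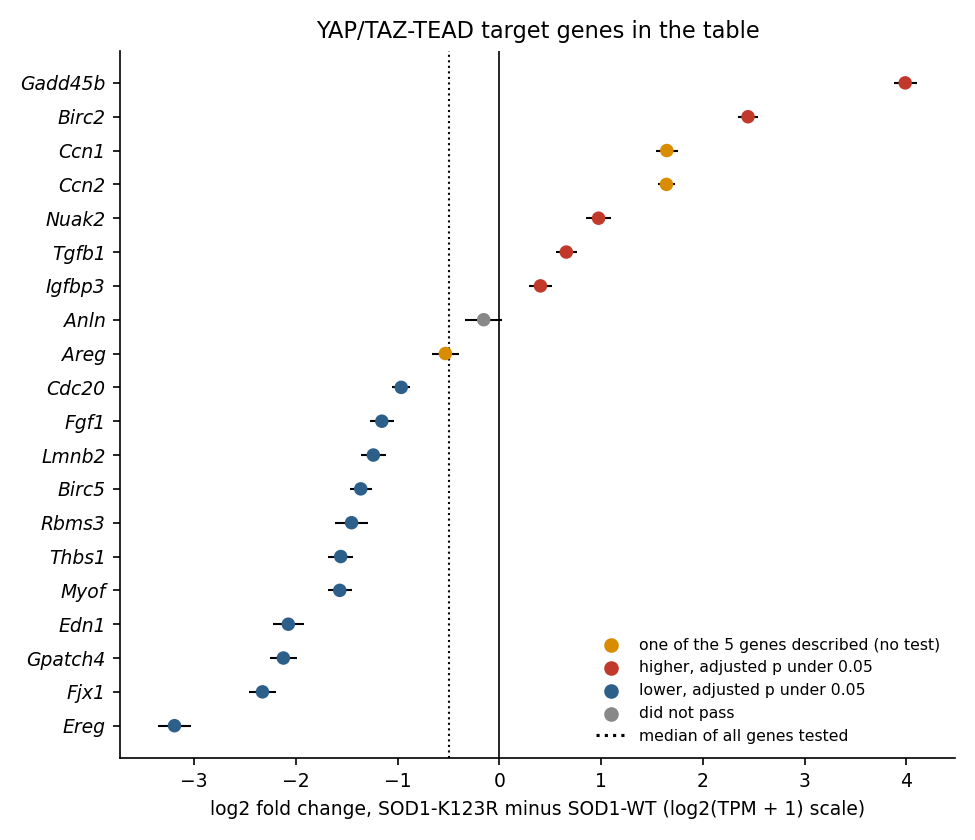
Log2 fold changes, SOD1-K123R minus SOD1-WT, of the 20 listed YAP/TAZ-TEAD target genes that passed the expression filter (horizontal axis, log2(TPM + 1) scale), with limma standard errors. Ccn1, Ccn2 and Areg (orange) are shown without a test; of the others 5 were higher (red), 11 lower (blue) and 1 did not pass (grey), and the dotted line is the median of all genes tested, -0.49.

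Promoter windows were found for 18 of the 21 listed targets in the table. Besides Ccn1, Ccn2 and Areg, 2 of 15 had a TEAD match, beside 14.2% of all RefSeq windows, so nothing is read from this count. The 2 were the AMPK-related kinase gene Nuak2 and the thrombospondin gene Thbs1. Their matches are printed for comparison with those of the CCN genes because one of these genes was higher and the other lower in SOD1-K123R (GRCr8, chr13:46305766-46305795 and chr3:125510191-125510220, both on the plus strand, match in capitals).
Nuak2: cctcctttcccgCATTCCtggttctccggt
Thbs1: gcccattggccaGGAATGcgggagcctctt

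Nuak2 was chosen for its match, and its window lies at a start that is not the outermost of the gene. Its level was 35.2 ± 2.05 TPM in SOD1-K123R and 17.6 ± 3.45 TPM in SOD1-WT (log2 fold change 0.98, limma adjusted p = 6.21e-06). Thbs1, a matricellular protein that activates latent TGF-beta, read 1418, 1361, 1098 and 1502 TPM in SOD1-K123R, against 3487, 3732, 3831 and 4818 TPM in SOD1-WT. Thbs1 thus fell by 1.56 on the log2 scale (SE 0.12, adjusted p = 1.11e-07). Whether the motif matches bear on the levels of these genes was not tested.

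Within the CCN family itself 4 of 6 members were in the table. Ccn4, a Wnt-induced member also called WISP1, fell to 1.82, 2.57, 1.45 and 1.66 TPM in SOD1-K123R, against 11.4, 13.6, 11.2 and 12.6 TPM in SOD1-WT (log2 fold change -2.21, SE 0.14, adjusted p = 1.60e-08). Ccn5, a member that lacks the C-terminal domain, lay below the filter at 0.08 to 0.22 TPM in SOD1-K123R and 0.72 to 2.23 TPM in SOD1-WT. The CCN members in the table thus had higher values in SOD1-K123R for Ccn1 and Ccn2 and lower values for Ccn4 and Ccn5.

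Where 51.1% of all genes tested fell, 8 of 9 other matricellular genes tested fell and none rose. The remaining 1, Plaur, did not pass (log2 fold change 0.20, limma adjusted p = 0.0522). It encodes the urokinase receptor, a cell-surface protein that the list includes and not a secreted matrix protein. Besides Thbs1 those that fell included Thbs2, a thrombospondin of collagen assembly, at 282 ± 25.9 TPM in SOD1-K123R and 777 ± 216 TPM in SOD1-WT, where SOD1-WT replicate 4 alone read 1099.6 TPM and its 3 companions 646 to 702 TPM. Ibsp, bone sialoprotein, fell to 1.54 ± 0.509 TPM in SOD1-K123R, against 9.22 ± 1.82 TPM in SOD1-WT, and Lgals8, galectin-8, fell by 1.12 on the log2 scale. After median-of-ratios scaling 6 fell, Plaur rose (0.68, adjusted p = 0.00121), and Tgfbi and Thbs4 did not pass (0.20 and -0.18).

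Proposed receptors of CCN proteins were mostly outside the table. Of 3 tested, Fgfr2, a fibroblast growth factor receptor, rose to 17.7 ± 1.97 TPM in SOD1-K123R, against 7.37 ± 0.493 TPM in SOD1-WT. Tnfrsf11b, the decoy receptor osteoprotegerin, fell to 2.91 ± 1.11 TPM in SOD1-K123R, against 27.1 ± 5.76 TPM in SOD1-WT, and Sdc3, a heparan sulfate proteoglycan, fell by 1.29 on the log2 scale. The highest adjusted p of the 3 was 3.64e-06 (limma).

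The MRTF-SRF pathway is an actin-sensing route that also acts on Ccn1 and Ccn2. Of its 35 listed targets 8 were in the table, the 2 CCN genes among them. All 6 others fell, where 51.1% of all genes tested fell. The 6 also fell after median-of-ratios scaling, when 1353 of all 2890 genes tested were lower. The same held after quantile normalization, when 1413 of 2890 were lower. Their median log2 fold change was -1.83, beside -0.49 over all genes tested and 0.27 over those with a mean of at least 5 TPM. Tpm1, a tropomyosin of stress fibres, was at 199.6 ± 3.83 TPM in SOD1-K123R and 1087 ± 126 TPM in SOD1-WT. The others named by rule were Fhl1, a LIM-domain protein (log2 fold change -2.30), Myh11, smooth muscle myosin (-1.98), and Synpo2, an actin-bundling protein (-1.29), with adjusted p of at most 2.02e-06.

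Upstream of the cascade 9 regulators were tested, of which 3 rose and 6 fell (5 after median-of-ratios scaling, when the cadherin gene Fat1 did not pass). Of all genes tested 44.6% rose and 51.1% fell. Nf2, which encodes merlin, the membrane scaffold that brings LATS to its activators, read 7.54, 7.26, 5.59 and 6.57 TPM in SOD1-K123R, against 32.4, 33.4, 32.3 and 33.1 TPM in SOD1-WT. Nf2 thus fell by 2.13 on the log2 scale (SE 0.10, adjusted p = 2.33e-09), while Sav1 was higher in the same SOD1-K123R libraries. Sfn, the phosphoprotein-binding 14-3-3 sigma, fell by 1.81 (adjusted p = 1.54e-08). Csnk1e, a casein kinase of the Wnt and clock pathways, rose to 135 ± 11.5 TPM in SOD1-K123R, against 42.3 ± 2.21 TPM in SOD1-WT (adjusted p = 3.61e-09), and Pals1, a polarity scaffold, rose by 1.58 (adjusted p = 3.30e-06). YAP, TAZ, TEAD and VGLL genes were not analysed here.

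The deposited table annotates 21 genes to the KEGG Hippo signaling pathway, among them Ccn2, Sav1, Wnt11 and Areg but not Ccn1. This list was taken up after the table had been seen. Of 15 others tested 13 rose, 1 fell and 1, the growth factor gene Gdf5, did not pass (log2 fold change 0.32, limma adjusted p = 0.0948; higher after both rescalings). Of all genes tested 44.6% were higher and 51.1% lower in SOD1-K123R. The median log2 fold change of the 15 was 1.07, beside -0.49 over all genes tested and 0.27 over those with a mean of at least 5 TPM. The annotated genes that rose included Birc2, Csnk1e, the Wnt ligand gene Wnt9a and Smad2, a transducer of TGF-beta signals (59.9 ± 3.40 TPM in SOD1-K123R and 19.9 ± 2.93 TPM in SOD1-WT). Birc5, the mitotic protein survivin, fell by 1.36 on the log2 scale. Birc2, Birc5, Csnk1e and Wnt9a are among the annotated genes that other lists here also count, so these counts are not separate.

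Areg is 1 of 6 EGF-family ligand genes in the table, and the 3 others tested differed among themselves. Ereg fell, as given above. Tgfa, transforming growth factor alpha, rose to 27.8, 28.0, 25.7 and 25.3 TPM in SOD1-K123R, against 11.2, 12.9, 12.6 and 12.5 TPM in SOD1-WT (log2 fold change 1.06, SE 0.09, adjusted p = 2.23e-07). Nrg1, neuregulin 1, was at 14.8 ± 2.37 TPM in SOD1-K123R and 13.7 ± 1.26 TPM in SOD1-WT and did not pass (adjusted p = 0.423), but it rose after median-of-ratios scaling (0.55, adjusted p = 0.00121). In SOD1-WT the most abundant of these ligands was Ereg, whose range lay wholly above that of Areg, whereas in SOD1-K123R the 2 had overlapping levels of 8.20 to 13.2 TPM for Ereg and 10.0 to 14.4 TPM for Areg and Tgfa had the highest.

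No ERBB receptor gene was tested, and Erbb4 lay below the filter at 0 to 0.05 TPM in SOD1-K123R and 0.10 to 0.39 TPM in SOD1-WT. Among feedback inhibitors, adaptors and shedding factors of the ERBB family, 7 of 8 tested rose and 1 fell. Of all genes tested 44.6% were higher and 51.1% lower in SOD1-K123R. Spry1, a feedback inhibitor of receptor tyrosine kinases, was the 1 of the 8 that fell (11.9 ± 0.984 TPM in SOD1-K123R and 74.8 ± 10.1 TPM in SOD1-WT, adjusted p = 9.03e-10). Dusp5, a nuclear phosphatase of ERK, rose to 114 ± 6.44 TPM in SOD1-K123R, against 37.7 ± 1.12 TPM in SOD1-WT. Rhbdf2, which encodes iRhom2, the carrier of the amphiregulin sheddase ADAM17, rose by 1.56 on the log2 scale, and the adaptor gene Gab2 by 1.36. The adjusted p of these 3 genes were at most 4.94e-08.

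**Figure D5:**
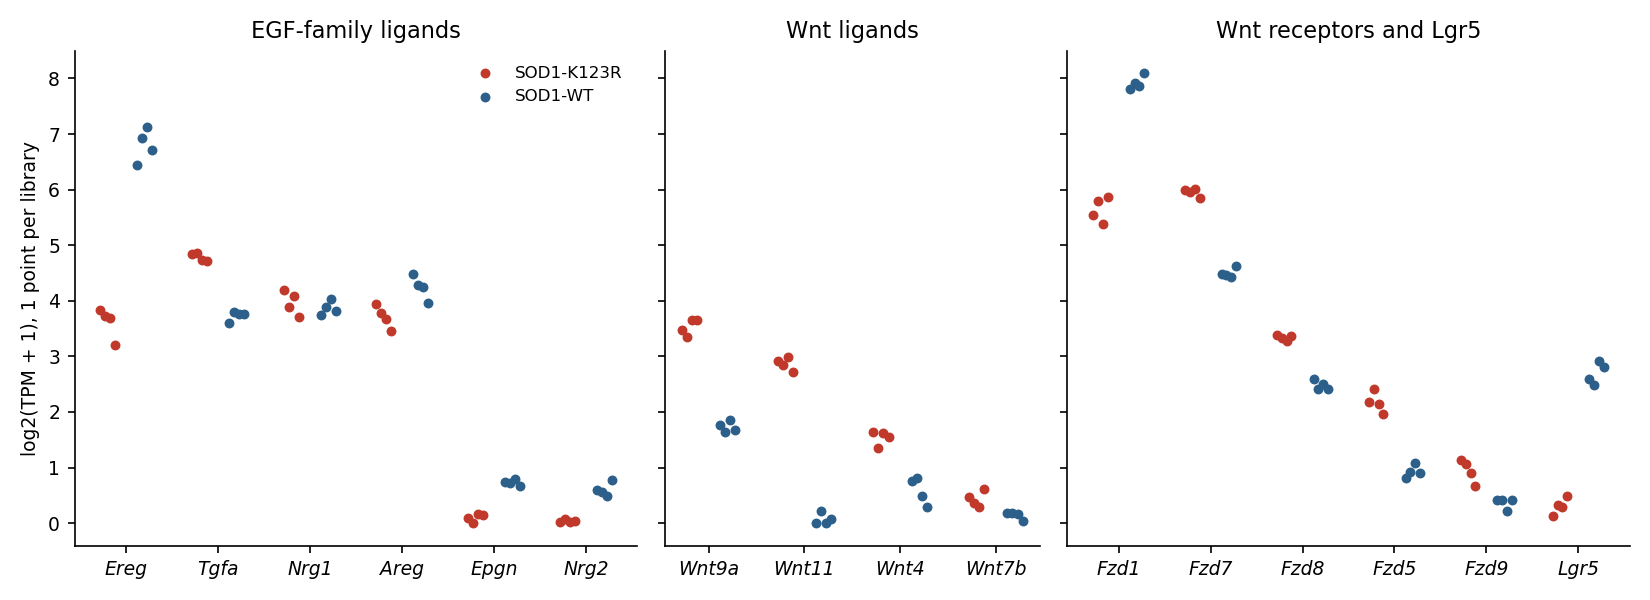
Log2(TPM + 1) in each library (vertical axis; SOD1-K123R red and left of SOD1-WT blue for each gene) for the EGF-family ligands, Wnt ligands, and frizzled receptors with Lgr5 that were in the table. Wnt11 and Wnt9a are higher in every SOD1-K123R library, while Ereg, Fzd1 and Lgr5 are lower.

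Of 19 listed Wnt ligand genes 4 were in the table, Wnt11 among them. The 2 others tested rose, where 44.6% of all genes tested rose. Wnt9a, a ligand of joint and cartilage development, read 10.2, 9.20, 11.55 and 11.5 TPM in SOD1-K123R, against 2.42, 2.10, 2.63 and 2.18 TPM in SOD1-WT (log2 fold change 1.80, SE 0.12, adjusted p = 2.61e-08). Wnt4 was at 1.92 ± 0.254 TPM in SOD1-K123R and 0.522 ± 0.253 TPM in SOD1-WT (limma adjusted p = 2.70e-05). It passed the filter through its SOD1-K123R level alone, as its SOD1-WT libraries read 0.22 to 0.76 TPM. Of 8 tested genes of Wnt reception and secretion 4 rose and 4 fell. That is near the 44.6% and 51.1% of all genes tested, so nothing is read from the split. After either rescaling 3 fell, when the formin gene Daam2 did not pass. Fzd1, a Wnt receptor, fell to 49.7 ± 7.88 TPM in SOD1-K123R, against 242 ± 21.6 TPM in SOD1-WT, and Fzd7, another, rose to 56.7 to 63.7 TPM in SOD1-K123R, against 20.4 to 23.8 TPM in SOD1-WT. Lgr5, a receptor for R-spondins, read 0.10 to 0.41 TPM in SOD1-K123R, against 4.57 to 6.52 TPM in SOD1-WT. It passed the filter through its SOD1-WT level alone, and its log2 fold change of -2.38 depends on the pseudocount. Dvl2, the cytoplasmic transducer Dishevelled 2, rose by 1.28 on the log2 scale. The adjusted p of Fzd1, Fzd7, Lgr5 and Dvl2 were at most 8.11e-08 (limma).

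Of 4 tested genes regulated by beta-catenin 2 were higher and 2 lower. With 44.6% of all genes tested higher and 51.1% lower, nothing is read from this count. Ccnd1, cyclin D1, rose to 856 ± 56.98 TPM in SOD1-K123R, against 409 ± 45.4 TPM in SOD1-WT (adjusted p = 3.23e-07), and Tcf7, a nuclear partner of beta-catenin, rose by 0.96. Lgr5, already counted among the genes of Wnt reception, and Bambi, a decoy receptor, fell. The log2 fold change of Bambi was -0.24 (adjusted p = 0.0384), which did not pass without SOD1-WT replicates 1, 2 or 4 or SOD1-K123R replicates 1 or 4, each left out alone (adjusted p 0.0561 to 0.131), and was 0.23 after median-of-ratios scaling. Of secreted Wnt inhibitors only Sfrp2 was tested, at 32.0 ± 5.18 TPM in SOD1-K123R and 23.7 ± 4.90 TPM in SOD1-WT. It rose (the log2 fold change of Sfrp2 was 0.43, adjusted p = 0.0157), but not without SOD1-K123R replicate 1 (adjusted p = 0.0570) or without SOD1-WT replicate 4 (0.0512).

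Genes with the pattern most like each of the 5 were found by the root mean square difference of log2(TPM + 1), centred on each gene's mean, over the 8 libraries. Candidates were the 1774 genes with a symbol whose mean reached 5 TPM, and since the groups differ for most genes the likeness reflects mainly a shared size of the group difference. For Ccn2 these were Ell, which encodes a transcription elongation factor (difference 0.055), Pfkfb3, an enzyme that drives glycolysis (0.060), and Vhl, the von Hippel-Lindau tumour suppressor (0.061). Ccn1 was closest to Dhrs3, a retinal reductase (0.083).

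Sav1 was closest to Ppp2r2a, a regulatory subunit of protein phosphatase 2A that the table also annotates to Hippo signaling (0.050), Zbtb21, a zinc finger protein (0.060), and Ubn1, ubinuclein 1 (0.063). For Wnt11 the nearest genes were farther off, at 0.132 for the stress-induced mTOR inhibitor gene Ddit4, 0.132 for Ccng2, cyclin G2, and 0.135 for Pim1, a serine/threonine kinase gene. Areg had the least close neighbours of the 5, at 0.168 for Pttg1, securin, 0.170 for Cep72, a centrosomal protein gene, and 0.187 for Ptges, prostaglandin E synthase.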

How the data were processed

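RNA-seq of 8 rat libraries was analysed, grouped by titles and genotype labels. The authors deposited TPM per gene for part of the transcriptome, with RSEM given in the name of the deposited table. No aligner, build or annotation is stated in the labels, and depth is unknown. A mean of 1 TPM or more over the libraries was required for testing (2890 genes passed and 1336 did not), which was done on log2(TPM + 1), with limma 3.58.1 (mean-variance trend) in R 4.3.3, SOD1-K123R minus SOD1-WT, two-sided, passing at a Benjamini-Hochberg adjusted p under 0.05. The fold change understates the change of genes with low TPM. The code was tested on simulated data. The 5 genes and the gene lists (393 different genes, 102 of them in the table) were chosen with earlier results of these data known. Named are the 5 genes, per list the 4 tested genes lowest in adjusted p plus 1 of the opposite direction, and the 3 nearest genes to each of the 5 (some results under this rule are not reported here); other names were chosen after their values were seen. Alternatives were other scalings, pseudocount, filters, no trend, a replicate block and leaving out each library. Promoter sequences come from RefSeq (GRCr8), matched by symbol, and the deposited genes were not placed on that build.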

Additional observations from a re-analysis of the deposited data

Results flagged for a closer look

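In 6 of 114 groups of 4 libraries examined for the genes named, 1 library stood apart from the other 3 by more than Dixon's 95% limit, where chance alone flags about 1 in 20. None was a value of Ccn1, Ccn2, Sav1, Wnt11 or Areg. In SOD1-K123R these were replicate 3 for Lgals8 (11.27 TPM, with the rest at 13.2 to 13.5) and for Synpo2 (2.16 TPM, with the rest at 3.54 to 3.65), and replicate 2 for Vhl (61.3 TPM, with the rest at 64.8 to 65.3). In SOD1-WT they were replicate 4 for Thbs2 (1099.6 TPM, with the rest at 646 to 702) and for Ptges (656 TPM, with the rest at 739 to 749.98), and replicate 2 for Ell (27.8 TPM, with the rest at 29.0 to 29.3).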

How the results depend on the processing

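Each of the 5 genes kept its sign under each alternative run, but after median-of-ratios scaling the Areg value was smaller than its standard error (SE 0.16). Median-of-ratios scaling moved the log2 fold changes to 2.13 (Ccn1), 2.13 (Ccn2), 1.62 (Sav1), 3.02 (Wnt11) and -0.079 (Areg), and quantile normalization to 1.15 (Ccn1), 1.07 (Ccn2), 1.04 (Sav1) and 2.93 (Wnt11). A pseudocount of 0.1 gave 5.51 for Wnt11. With 1 library left out the values ran from 1.57 to 1.74 for Ccn1, 1.61 to 1.68 for Ccn2, 1.10 to 1.19 for Sav1, 2.76 to 2.85 for Wnt11 and -0.62 to -0.45 for Areg. With no filter on low values the counts of passing genes became 2 for the CCN family, 4 for EGF-family ligands, 3 for secreted Wnt inhibitors and 7 for beta-catenin targets. At a mean of at least 5 TPM they became 1 for Wnt ligands and 2 for beta-catenin targets; the filter sets how many genes are tested. That filter also moved the median log2 fold change of all genes tested to 0.27, from -0.49 with the filter at 1 TPM. Leaving out 1 library gave 0 to 1 secreted Wnt inhibitors and 2726 to 2770 genes in all. Median-of-ratios scaling turned Bambi to 0.23 and Ptges to 0.083; the cause was not tested.

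Deviations of same-numbered libraries of both groups correlated at -0.35 to 0.05 across genes, and those of differently numbered ones at -0.40 to 0.44. With so few libraries these values do not settle whether the numbers pair them. With a replicate block 1282 genes were higher and 1461 lower, against 1289 and 1476 without it. Of the genes named, the block ended a call for the log2 fold change of Bambi alone (adjusted p = 0.0708).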
